A study of Mus musculus with 36 samples.

Results

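Of the 32 genes described here, 20 encode enzymes of cholesterol synthesis, counting *Ggps1*, whose product serves protein prenylation. Another 5 encode the SREBP transcription factors and the proteins that control them. A further 6 encode sterol transport proteins, the LXR receptors and a ligase under their control, and 1 encodes apolipoprotein E. The 32 genes were listed by name for these functions, whatever their level. All 32 were found by their Ensembl identifiers among the 38887 genes of the count table. After removal of genes with low counts, the model of both cell types tested 32 of them, as did that of LT-HSC, and the model of HPC-1 tested 31, without *Nr1h3*.

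Cholesterol is built from acetyl-CoA through mevalonate, isoprenoid pyrophosphates, squalene and lanosterol. When sterols in the endoplasmic reticulum are scarce, SCAP carries the SREBP factors to the Golgi for cleavage and the freed fragment turns on the synthesis genes, whereas INSIG proteins hold SCAP back when sterols are plentiful. Oxysterols formed from surplus cholesterol activate the LXR receptors, which raise the exporters ABCA1 and ABCG1. In hematopoietic stem and progenitor cells, these exporters and cell-bound apolipoprotein E are known as brakes on proliferation.

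The study profiled RNA of LT-HSC (Lin-Sca-1+c-kit+ cells positive for CD150 and negative for CD48) and HPC-1 (the CD150-negative, CD48-positive cells of the same compartment, called ST-HSC in the sample labels), with 5000 cells per library. The question was how IL-27 receptor signaling shapes the response of these progenitors to angiotensin II (Ang II), an agent that drives abdominal aortic aneurysm in hyperlipidemic mice. Every group was *Apoe*-/-, on a Western diet for 12 weeks from the age of 8 weeks, and received PBS or Ang II at 800 ng per kg per min for 2 weeks through an implanted pump. The groups differed in *Il27ra*, which was intact (*Apoe*-/-), heterozygous (*Apoe*-/-*Il27ra*+/-) or deleted (*Apoe*-/-*Il27ra*-/-).

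The 17 LT-HSC libraries were 1 of *Apoe*-/-, 3 of *Apoe*-/-*Il27ra*+/- and 3 of *Apoe*-/-*Il27ra*-/- mice after PBS, and 2, 4 and 4 of these genotypes after Ang II. Of the 19 HPC-1 libraries, 2, 3 and 3 were from the PBS groups and 3, 4 and 4 from the Ang II groups, in the same order of genotypes. The library total ran from 1980283 to 6861078 counts, with a median of 3139364. Levels are given in CPM, a gene's share of the library's counts in parts per M after TMM scaling over all 36 libraries. The detection limit, 3 counts, lay between 0.398 and 1.49 CPM and allows for counting error alone. The study's methods fitted gender, which the labels do not give; they give no batch either and do not say that replicates were separate mice. A caption of the study gives 2 *Apoe*-/-, 4 *Apoe*-/-*Il27ra*+/- and 3 *Apoe*-/-*Il27ra*-/- mice, fewer than the libraries of some Ang II groups here (4 of *Apoe*-/-*Il27ra*-/- in each cell type and 3 of *Apoe*-/- in HPC-1), so p-values measure the spread between these libraries.

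Both deleted genes were read in every library before the comparisons. *Il27ra*, which encodes the ligand-binding subunit of the IL-27 receptor, was at 17.1 CPM in the *Apoe*-/- PBS library of LT-HSC, 42.7, 24.1 and 25.6 CPM in the *Apoe*-/-*Il27ra*+/- and 9.42, 6.94 and 16.3 CPM in the *Apoe*-/-*Il27ra*-/- libraries of that treatment. After Ang II, the *Apoe*-/- LT-HSC held 42.9 and 51.8 CPM, the *Apoe*-/-*Il27ra*+/- LT-HSC 30.2, 25.5, 27.1 and 32.8 CPM and the *Apoe*-/-*Il27ra*-/- LT-HSC 16.3, 11.7, 16.2 and 19.3 CPM. All 4 *Apoe*-/-*Il27ra*-/- libraries thus lay below every other LT-HSC library of the Ang II groups, while the library labelled *Apoe*-/- PBS lay just above the *Apoe*-/-*Il27ra*-/- libraries and below the *Apoe*-/-*Il27ra*+/- libraries of its own treatment. In HPC-1, the *Apoe*-/-, *Apoe*-/-*Il27ra*+/- and *Apoe*-/-*Il27ra*-/- libraries held 8.26 and 11.9, 15.6, 11.1 and 9.97, and 6.69, 11.1 and 8.35 CPM after PBS. The corresponding values after Ang II were 10.2, 8.88 and 6.07, 5.46, 9.58, 14.3 and 16.5, and 6.63, 5.91, 4.64 and 9.04 CPM. The genotypes overlapped in HPC-1. Counts per gene do not show which exons were read, so transcripts from outside the deleted part cannot be told apart from intact ones.

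*Apoe*, the apolipoprotein through which remnant lipoproteins are cleared, was deleted in all groups, so no intact group was there to check it against. In LT-HSC after PBS it was at 15.7 CPM in the library labelled *Apoe*-/-, while the *Apoe*-/-*Il27ra*+/- libraries held 11.2, 13.6 and 13.7 and the *Apoe*-/-*Il27ra*-/- libraries 18.4, 7.23 and 14.9 CPM. After Ang II it was at 27.4 and 22.9, at 16.0, 14.6, 15.5 and 10.2, and at 9.25, 13.4, 14.9 and 19.6 CPM in the same order of genotypes. Both *Apoe*-/- Ang II libraries were above all other LT-HSC libraries. In HPC-1 the PBS groups held 3.54 and 8.41, 1.99, 6.51 and 3.66, and 7.01, 1.54 and 6.81 CPM, and the Ang II groups 2.99, 5.71 and 0, 3.18, 3.65, 11.3 and 6.14, and 3.46, 0.348, 3.48 and 4.32 CPM. The remaining *Apoe* counts were thus higher in most LT-HSC than in most HPC-1 libraries, and these counts do not show which exons were read.

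Some libraries stood apart. The sum of 10 LT-HSC markers ran from 926.3 to 3218 CPM in the LT-HSC libraries, with a median of 2586, and from 710.9 to 1414 in the HPC-1 libraries, with a median of 883.9; *Kit* was the most abundant of them and none was at 0 in all libraries of a cell type. The lowest LT-HSC value belonged to replicate 2 of the *Apoe*-/-*Il27ra*-/- PBS group, in which *Slamf1*, the gene for CD150, was at 2.36 CPM, *Cd48* at 62.6 and *Flt3* at 434.6. The other 16 LT-HSC libraries held from 20.7 to 73.8 CPM of *Slamf1*, so that library resembled HPC-1 by the markers of the gate. Replicate 2 of the *Apoe*-/-*Il27ra*-/- Ang II group of LT-HSC summed to 7076 CPM over 8 granulocyte markers, led by *S100a9*, where the LT-HSC median was 50.44, and to 1794 CPM over 11 macrophage markers, led by *Lyz2*, where the median was 125.2. Granulocyte sums were also high in replicates 2 and 3 of the *Apoe*-/-*Il27ra*-/- PBS group of LT-HSC, at 471.6 and 1249 CPM. Over 9 erythroid markers, with an LT-HSC median of 176.8 CPM, the highest sums were 3044 in replicate 3 of the *Apoe*-/-*Il27ra*-/- PBS group, 2887 in replicate 2 of the *Apoe*-/-*Il27ra*-/- Ang II group and 882.6 in replicate 3 of the *Apoe*-/-*Il27ra*+/- PBS group, led by *Hba-a2* in each.

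Transcripts of intestinal epithelium were found mainly in the *Apoe*-/- libraries. The 16 markers of that list summed to 491.6 and 531.6 CPM in the LT-HSC libraries of *Apoe*-/- mice given Ang II, with *Dmbt1* as the most abundant gene and *Phgr1* and *Olfm4* at 0 in both. The library labelled *Apoe*-/- PBS summed to 324.8 CPM and every other LT-HSC library to between 35.4 and 127.3 CPM. In those libraries *Krt18* made up most of the sum. The HPC-1 libraries of *Apoe*-/- mice given Ang II summed to 117.3, 109.7 and 325.1 CPM, and those of *Apoe*-/- mice given PBS to 100.3 and 85.5, against 28.9 to 91.7 CPM for *Apoe*-/-*Il27ra*+/- and *Apoe*-/-*Il27ra*-/- libraries. The *Apoe*-/- libraries were thus the highest of each cell type after Ang II.

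Among the 32 genes, levels can be compared as median CPM per kb of exon. The exon length joins all annotated exons of a gene, so it can exceed that of the transcripts present and lower the value. In LT-HSC, *Srebf2*, which encodes the SREBP that drives sterol synthesis, led with 33.3 CPM per kb. It was followed by *Lbr*, a sterol reductase that also anchors the nuclear lamina, with 28.8, by *Nr1h2*, the gene for LXRβ, with 24.6, and by *Stard4*, a cytosolic sterol carrier, with 19.9. In HPC-1 the leading levels were those of *Lbr* (50.8), *Srebf2* (24.2) and *Nr1h2* (21.7 CPM per kb). At the low end stood *Tm7sf2*, *Hsd17b7*, *Mvd* and *Nr1h3*, with 0.791, 0.863, 0.929 and 0.966 CPM per kb in LT-HSC. Their levels in HPC-1 were 1.11, 0.904, 1.19 and 0.313 CPM per kb. *Nr1h3*, the gene for LXRα, was at or below the detection limit in 3 of 17 LT-HSC and 11 of 19 HPC-1 libraries. Some genes share sequence with others: 43.7% of the 31-base words of *Acat2* transcripts also occur in other genes, mostly *Acat3*, and the shares for *Fdps*, *Idi1*, *Fdft1*, *Tm7sf2* and *Ggps1* were 27.9, 18.8, 14.3, 12.9 and 10.3%. Levels without the shared sequence were not measured.

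To ask how stem cells and their progeny differ in sterol genes, LT-HSC were compared with HPC-1 as the mean difference over the 5 conditions with at least 2 libraries in both cell types, which took in 16 LT-HSC and 17 HPC-1 libraries. Of the 32 genes, 11 differed, 7 higher and 4 lower in LT-HSC, a share of 34.4% against 36.3% of the 18013 genes tested (edgeR quasi-likelihood test, Benjamini-Hochberg adjusted p under 0.05). The share is near the background, so it is no result about the list, and only single genes and their directions are described. The median log2 fold change of the 32 genes was 0.14, against 0.03 over all genes. In bulk RNA of sorted cells, fewer cells of a type and less RNA per cell cannot be told apart.

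Of the 20 synthesis enzymes, 6 differed, and they split by direction. *Fdft1* (squalene synthase, the entry to the sterol branch) and *Lss* (lanosterol synthase) were higher in LT-HSC. *Fdps* (farnesyl pyrophosphate synthase), *Lbr*, *Ebp* (the sterol isomerase) and *Mvk* (mevalonate kinase) were lower. The lowest, median and highest level of *Fdft1* were 18.8, 24.5 and 36.6 CPM in LT-HSC and 0.696, 15.2 and 23.2 in HPC-1, a log2 difference of 0.77 (SE 0.20, edgeR quasi-likelihood test with Benjamini-Hochberg adjusted p = 0.00245). For *Lss* the levels were 17.8, 25.1 and 40.5 against 5.29, 15.7 and 34.8 CPM (log2 difference 0.59, SE 0.17, edgeR adjusted p = 0.00404). For both genes, all 16 LT-HSC libraries lay above the HPC-1 median, although the ranges overlapped.

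Among the enzymes that were lower, *Lbr* was at 113.8, 139.0 and 302.5 CPM (lowest, median, highest) in LT-HSC and at 122.7, 245.1 and 282.8 in HPC-1, a log2 difference of -0.62 (SE 0.11, edgeR Benjamini-Hochberg adjusted p = 2.8e-05, 14 of 16 LT-HSC libraries below the HPC-1 median). The highest LT-HSC values of *Lbr* came from the replicate 2 libraries of *Apoe*-/-*Il27ra*-/- mice that stood apart by their markers. *Ebp* was at 8.79, 15.5 and 43.3 against 19.1, 32.4 and 44.3 CPM (-0.72 on the log2 scale, SE 0.14, edgeR adjusted p = 9.67e-05, 15 of 16 below). *Fdps* was at 15.5, 23.2 and 43.4 against 18.5, 42.0 and 66.4 CPM (-0.68, SE 0.15, edgeR adjusted p = 0.000434, 15 of 16 below). In each of these genes the ranges of the cell types overlapped and the difference had the same sign in 5 of 5 conditions.

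*Mvk*, whose enzyme phosphorylates mevalonate, was at 0, 5.34 and 8.49 CPM in LT-HSC and at 1.30, 5.80 and 10.1 in HPC-1, with 9 of 16 LT-HSC libraries below the HPC-1 median and a log2 difference of -0.92 (SE 0.31, edgeR quasi-likelihood test, Benjamini-Hochberg adjusted p = 0.0167). Its medians were close, and 3 of 5 conditions had the lower mean in LT-HSC. Without the *Apoe*-/- Ang II condition, an alternative chosen after seeing the data, the difference was -0.02 with an edgeR adjusted p of 1, and without replicate 2 of the *Apoe*-/- Ang II LT-HSC it was -0.74 with an edgeR adjusted p of 0.0717. Without replicate 1 of that group it was -1.52. It did not pass with a replicate block (-0.83, edgeR adjusted p = 0.0689) or with no filter on low counts (-0.92, edgeR adjusted p = 0.0818). The other 14 synthesis enzymes had log2 differences from -0.41 (*Tm7sf2*, a sterol reductase) to 0.39 (*Sqle*, squalene epoxidase) and did not pass. *Hmgcs1*, the synthase of HMG-CoA, stood closest to the threshold, at -0.29 (SE 0.12, edgeR adjusted p = 0.0547, 12 of 16 LT-HSC libraries below the HPC-1 median), and it passed without the *Apoe*-/- Ang II condition, at -0.42 (edgeR adjusted p = 0.00855).

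Of the 5 genes for SREBP factors and their control, *Srebf2* differed. It was at 182.0, 234.8 and 302.2 CPM in LT-HSC and at 66.8, 180.4 and 213.5 in HPC-1 (lowest, median, highest), a log2 difference of 0.47 (SE 0.10, edgeR quasi-likelihood test, Benjamini-Hochberg adjusted p = 0.000257). All 16 LT-HSC libraries were above the HPC-1 median. *Srebf1*, *Scap*, *Insig1* and *Insig2* had log2 differences of 0.03, 0.01, 0.28 and 0.19 and did not pass. Without the *Apoe*-/- Ang II condition *Insig1* passed, at 0.52 (edgeR adjusted p = 0.0307).

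The smallest p-value belonged to a transport gene. Of the 6, 3 differed, all higher in LT-HSC. *Stard4* was at 62.7, 112.8 and 156.9 CPM in LT-HSC and at 49.7, 59.8 and 79.9 in HPC-1 (lowest, median, highest), a log2 difference of 0.92 (SE 0.09, edgeR quasi-likelihood test, Benjamini-Hochberg adjusted p = 3.34e-10). All 16 LT-HSC libraries were above the HPC-1 median, and the lowest of them was replicate 2 of the *Apoe*-/-*Il27ra*-/- PBS group, which resembled HPC-1 by its markers. The exporter genes differed less. *Abca1* was at 74.7, 129.3 and 179.4 against 29.1, 81.3 and 167.7 CPM (0.58, SE 0.19, edgeR adjusted p = 0.0149, 15 of 16 libraries above the HPC-1 median), and *Abcg1* at 95.1, 123.6 and 148.8 against 47.8, 104.0 and 148.2 CPM (0.26, SE 0.10, edgeR adjusted p = 0.0382, 14 of 16 above). Their ranges overlapped. With a block for replicates shared by the cell types, *Abca1* did not pass (0.58, edgeR adjusted p = 0.0501).

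The *Abcg1* difference failed the threshold when 1 of 5 libraries was left out, with log2 differences from 0.19 to 0.26 and edgeR adjusted p-values from 0.0525 to 0.193. These were replicates 1 and 3 of the *Apoe*-/- Ang II HPC-1, replicate 1 of the *Apoe*-/- Ang II LT-HSC, replicate 1 of the *Apoe*-/-*Il27ra*+/- PBS LT-HSC and replicate 3 of the *Apoe*-/-*Il27ra*-/- PBS LT-HSC. It also failed without the *Apoe*-/- Ang II condition (log2 difference 0.20, edgeR adjusted p = 0.158) and with no filter on low counts (0.26, edgeR adjusted p = 0.0656). *Nr1h3* was at 0, 2.29 and 5.71 CPM in LT-HSC against 0, 0.696 and 4.88 in HPC-1, a log2 difference of 1.16 (SE 0.48) that did not pass (edgeR adjusted p = 0.0554, 15 of 16 above the HPC-1 median). It passed without the *Apoe*-/- Ang II condition, at 1.54 (edgeR adjusted p = 0.0162). *Nr1h2* and *Mylip*, which encodes a ligase that degrades lipoprotein receptors, did not pass either, at 0.18 and -0.12.

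*Apoe* had the largest difference among the genes that passed. Its remaining transcripts were at 7.23, 14.8 and 27.4 CPM in LT-HSC and at 0, 3.65 and 11.3 in HPC-1 (lowest, median, highest), a log2 difference of 1.91 (SE 0.29, edgeR quasi-likelihood test, Benjamini-Hochberg adjusted p = 1.16e-06). All 16 LT-HSC libraries were above the HPC-1 median, and the sign was the same in 5 of 5 conditions. Macrophages and hepatocytes are known to express *Apoe*, and the Lin- gate of the sort is meant to leave mature myeloid cells out. The 11 macrophage markers summed to a median of 125.2 CPM in LT-HSC and 187.9 in HPC-1, led by *Lyz2*, with *Marco* at 0 in every HPC-1 library. The 9 hepatocyte markers summed to 13.9 and 8.70 CPM, led by *Apob*, with *Ttr* at 0 in every LT-HSC and *Fgb* in every HPC-1 library. Their part in the difference was not tested.

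**Figure D1:**
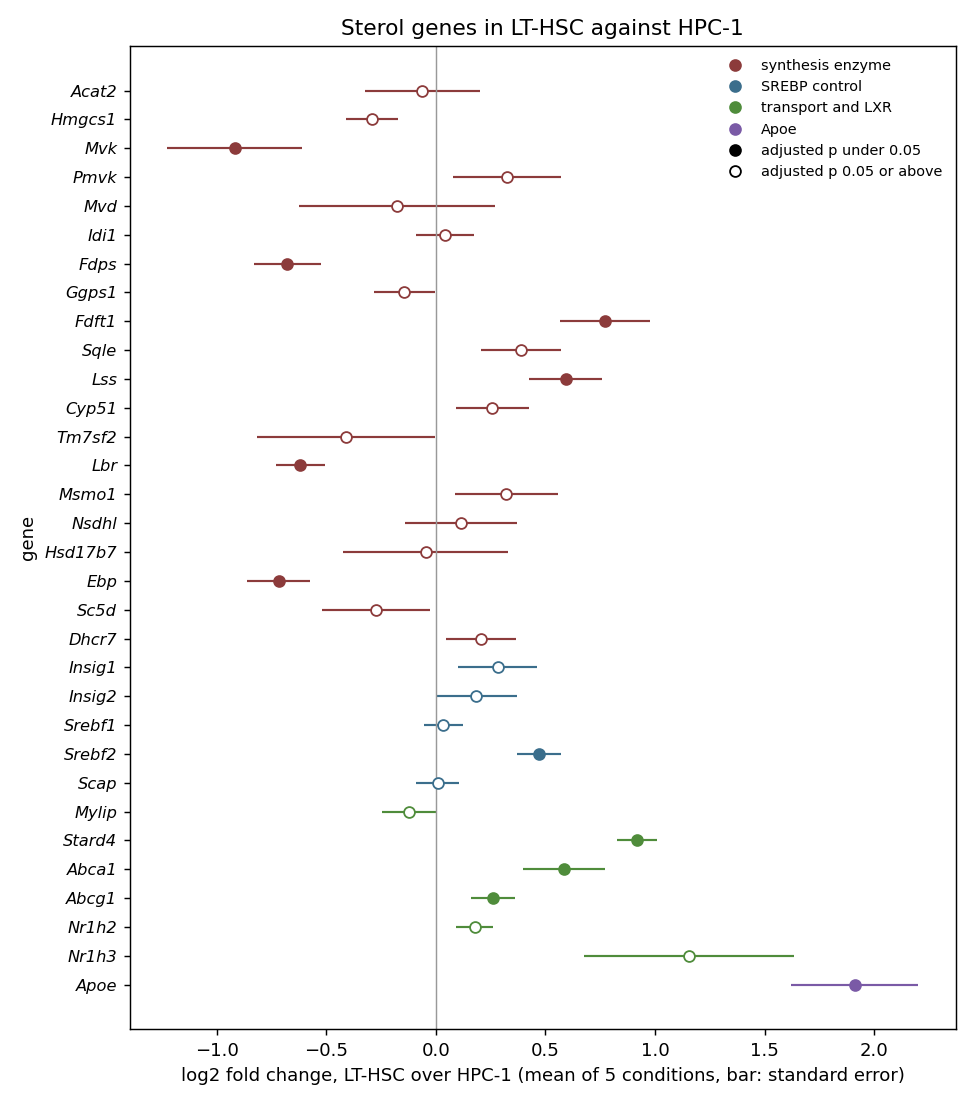
Log2 fold change of each of the 32 genes in LT-HSC over HPC-1 (horizontal axis), as the mean of 5 conditions with its standard error (bars), ordered by role in the pathway. Filled points mark the 11 genes with an adjusted p under 0.05; *Apoe* lies farthest to the right at 1.91 and *Mvk* farthest to the left at -0.92.

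Markers moved with the cell type too. All 10 LT-HSC markers were higher and all 14 proliferation genes lower in LT-HSC. The proliferation genes summed to a median of 3257 CPM in LT-HSC and 6585 in HPC-1, led by *Mki67*, with none at 0 in all libraries of a cell type. Of 7 HPC-1 markers, 5 were lower and 2 (*Kit* and *Ly6a*, which are also on the LT-HSC list) higher. Of the lists for other cells, 5 of 5 megakaryocyte genes, 4 of 15 tested intestinal genes, 5 of 9 erythroid genes, 1 of 8 granulocyte genes and 1 of 5 smooth muscle and endothelial genes were higher in LT-HSC. Lower were 1 erythroid, 3 granulocyte, 2 of 10 tested macrophage and 1 smooth muscle or endothelial gene, and 0 of 2 tested hepatocyte and 0 of 2 tested B lymphoid genes were called by edgeR. Their part in the differences of sterol genes was not tested.

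Neighbouring branches of lipid metabolism were read from 6 further lists in the same comparison. Counts of these lists stand beside the 36.3% of all genes that differed and are descriptions; the lists were not tested as sets. Of 18 genes of fatty acid synthesis and other SREBP targets, 14 differed. Higher in LT-HSC were *Me1* (log2 difference 3.74), *Scd1* (3.24), *Pnpla3* (1.79), *Acacb* (1.59), *Acss2* (1.25), *Fads1* (0.97) and *Fads2* (0.78). Lower were *Tmem97* (-1.40), *Elovl5* (-1.13), *Elovl6* (-0.52), *Acaca* (-0.47), *Fasn* (-0.38), *Scd2* (-0.31) and *Acly* (-0.28). *Scd1*, the stearoyl-CoA desaturase, averaged 20.2 CPM in LT-HSC and 2.43 in HPC-1. *Me1* and *Pnpla3* averaged 0.332 and 0.760 CPM in HPC-1, so their fitted values depend on the prior count.

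Of 13 tested genes of lipoprotein uptake and lysosomal sterol export, 6 were lower in LT-HSC, again where 36.3% of all genes differed in either direction. *Scarb1*, the receptor for high-density lipoprotein, averaged 46.6 CPM against 83.4 (log2 difference -0.84), and *Npc2*, *Npc1*, *Lipa*, *Stard3* and *Lrp1* differed by -0.77, -0.35, -0.54, -0.58 and -1.17. Of 18 genes of sterol esterification, transfer and hydroxylation, 5 were higher (*Cyp7b1* 2.54, *Nceh1* 0.77, *Osbpl1a* 0.37, *Osbpl9* 0.30 and *Erlin2* 0.25) and 4 lower (*Cyp27a1* -2.23, *Tspo* -1.08, *Erlin1* -0.86 and *Gramd1a* -0.40). *Cyp7b1* averaged 0.564 CPM in HPC-1, so its fitted value depends on the prior count. Among efflux genes and LXR partners or targets, *Lpl* (2.48), *Rxra* (0.81) and *Smpdl3a* (0.75) were higher and *Arl4c* (-0.98) and *Rxrb* (-0.45) lower. In SREBP processing and sterol sensing, 3 of 14 tested genes were lower (*Aup1* -0.39, *Vcp* -0.35 and *Trim35* -0.35).

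In the isoprenoid branch, 0 of 21 tested genes were called by edgeR, against 36.3% of all genes. Among the genes of these lists, *Cyp27a1*, *Erlin2*, *Lrp1*, *Npc1*, *Osbpl9* and *Stard3* did not pass without the *Apoe*-/- Ang II condition. When libraries were left out in turn, *Pnpla3* passed in 18 of 33 fits, *Erlin2* in 30 and *Npc1* in 31, and *Cyp7b1*, *Lrp1*, *Me1*, *Osbpl9* and *Stard3* in 32. *Me1*, *Lrp1* and *Pnpla3* failed without replicate 1 (log2 differences 2.70, -1.002 and 0.56), and *Cyp7b1* and *Erlin2* without replicate 2 (1.56 and 0.17), of the *Apoe*-/- Ang II LT-HSC. *Lpl* was at 3.09 without replicate 2 and *Cyp7b1* at 3.35 without replicate 1 of the *Apoe*-/- Ang II HPC-1. *Cyp27a1* was at -1.63 without replicate 3 of the *Apoe*-/-*Il27ra*+/- Ang II HPC-1, *Me1* at 4.35 without replicate 3 of the *Apoe*-/-*Il27ra*+/- PBS HPC-1 and *Pnpla3* at 2.55 without replicate 3 of the *Apoe*-/-*Il27ra*-/- PBS HPC-1.

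The effect of the *Il27ra* genotype was read next, within each cell type and treatment. In LT-HSC of mice given Ang II, *Sc5d* and *Mvk* were higher in *Apoe*-/-*Il27ra*-/- than in *Apoe*-/- mice, and both were also higher in *Apoe*-/-*Il27ra*+/- than in *Apoe*-/- mice. *Sc5d* encodes lathosterol oxidase, which sets the ring double bond late in cholesterol synthesis, and *Mvk* acts near its start. These were 2 of 32 genes in each comparison, 6.25% against 1.69% of 16365 genes for *Apoe*-/-*Il27ra*-/- and 0.831% for *Apoe*-/-*Il27ra*+/- mice. The comparisons share the same 2 *Apoe*-/- libraries, so their values are given side by side.

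*Sc5d* (ENSMUSG00000032018, chromosome 9, 42251595 to 42264256, minus strand, GRCm38) was at 0.963 and 0.995 CPM in the *Apoe*-/- LT-HSC given Ang II, which is 2 counts in each. The *Apoe*-/-*Il27ra*+/- libraries held 20.7, 13.5, 20.1 and 7.57 CPM, and the *Apoe*-/-*Il27ra*-/- libraries 30.3, 17.3, 18.8 and 19.3 CPM. After PBS the library labelled *Apoe*-/- held 7.13 CPM, the *Apoe*-/-*Il27ra*+/- LT-HSC 8.26, 13.6 and 15.4 and the *Apoe*-/-*Il27ra*-/- LT-HSC 17.6, 10.5 and 13.5 CPM. The *Apoe*-/- Ang II libraries were thus below their detection limits and below all 15 other LT-HSC libraries, with no overlap. In HPC-1, *Sc5d* was at 10.6 and 22.4, 2.65, 20.2 and 8.75, and 16.3, 12.9 and 10.3 CPM in *Apoe*-/-, *Apoe*-/-*Il27ra*+/- and *Apoe*-/-*Il27ra*-/- libraries after PBS, and at 10.8, 13.3 and 12.6, 12.7, 9.58, 8.69 and 10.98, and 12.7, 2.78, 10.4 and 7.08 CPM after Ang II. There all genotypes overlapped.

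From the summed counts, 354 in the *Apoe*-/-*Il27ra*-/- and 4 in the *Apoe*-/- libraries, the *Sc5d* ratio was 21.1 (exact binomial Clopper-Pearson interval 8.15 to 77.7, confidence level 0.95, counting error only). The fitted log2 fold change was 4.42 (SE 0.63, edgeR quasi-likelihood test with Benjamini-Hochberg adjusted p = 0.00172, higher in 4 of 4 libraries). For *Apoe*-/-*Il27ra*+/- over *Apoe*-/- mice, with 233 counts in the *Apoe*-/-*Il27ra*+/- libraries, the ratio was 13.9 (5.37 to 51.5, same interval) and the log2 fold change 3.94 (SE 0.63, edgeR adjusted p = 0.00518, higher in 4 of 4 libraries). The fitted values depend on the prior count, since the *Apoe*-/- libraries held so few counts. The *Apoe*-/-*Il27ra*+/- difference did not pass in a fit of the compared groups alone (log2 fold change 3.91, edgeR adjusted p = 0.0605) or in libraries under 4 M counts (4.06, edgeR adjusted p = 0.0583), with fold changes close to that of the main fit.

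*Mvk* (ENSMUSG00000041939, chromosome 5, 114444269 to 114460591, plus strand) had 1 and 0 counts in the *Apoe*-/- LT-HSC given Ang II, or 0.481 and 0 CPM. The *Apoe*-/-*Il27ra*+/- libraries held 8.49, 8.23, 5.04 and 5.44 CPM, the *Apoe*-/-*Il27ra*-/- libraries 5.18, 6.04, 4.70 and 5.23 CPM. After PBS the library labelled *Apoe*-/- held 1 count (0.476 CPM), the *Apoe*-/-*Il27ra*+/- libraries 2.91, 6.66 and 5.01 CPM and the *Apoe*-/-*Il27ra*-/- libraries 7.28, 7.53 and 6.31 CPM. All 3 *Apoe*-/- libraries of LT-HSC were below their detection limits and below the other 14, with no overlap. The HPC-1 libraries held 15.7 and 9.46, 6.95, 4.88 and 9.15, and 4.46, 4.31 and 5.495 CPM in *Apoe*-/-, *Apoe*-/-*Il27ra*+/- and *Apoe*-/-*Il27ra*-/- libraries after PBS and 3.29, 8.56 and 6.93, 10.006, 3.19, 1.30 and 5.65, and 10.1, 6.96, 5.80 and 7.86 CPM after Ang II, so that both *Apoe*-/- libraries were above the others after PBS and all genotypes overlapped after Ang II.

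The count ratio of *Mvk* was 21.2 for *Apoe*-/-*Il27ra*-/- (interval 3.70 to 846) and 25.1 for *Apoe*-/-*Il27ra*+/- mice (4.41 to 1000) over *Apoe*-/- mice, by the same exact interval for counting error. The fitted log2 fold changes were 4.28 (SE 0.92, edgeR quasi-likelihood test, Benjamini-Hochberg adjusted p = 0.0252) and 4.62 (SE 0.92, edgeR adjusted p = 0.0216), each higher in 4 of 4 libraries. By DESeq2 the adjusted p-values were 0.0572 and 0.0526, within ranges of 0.0222 to 0.362 and 0.0201 to 0.545 over the alternatives. Neither passed in libraries under 4 M counts, in the compared groups alone or with a replicate block, where the log2 fold changes ran from 4.24 to 4.83. In edgeR's quasi-likelihood fits, the *Apoe*-/-*Il27ra*-/- difference did not pass without replicate 3 or 4 of the *Apoe*-/-*Il27ra*-/- or replicate 2 of the *Apoe*-/- libraries (log2 fold changes 4.33, 4.27 and 3.38, Benjamini-Hochberg adjusted p = 0.0516, 0.0501 and 0.0762). The *Apoe*-/-*Il27ra*+/- difference did not pass without that *Apoe*-/- library (3.72, edgeR adjusted p = 0.0642). Without replicate 1 of the *Apoe*-/- libraries the *Apoe*-/-*Il27ra*-/- and *Apoe*-/-*Il27ra*+/- fold changes were 7.44 and 7.79. The *Apoe*-/- library left in that fit held 0 counts of *Mvk*, so these values depend on the prior count and are not exact.

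**Figure D2:**
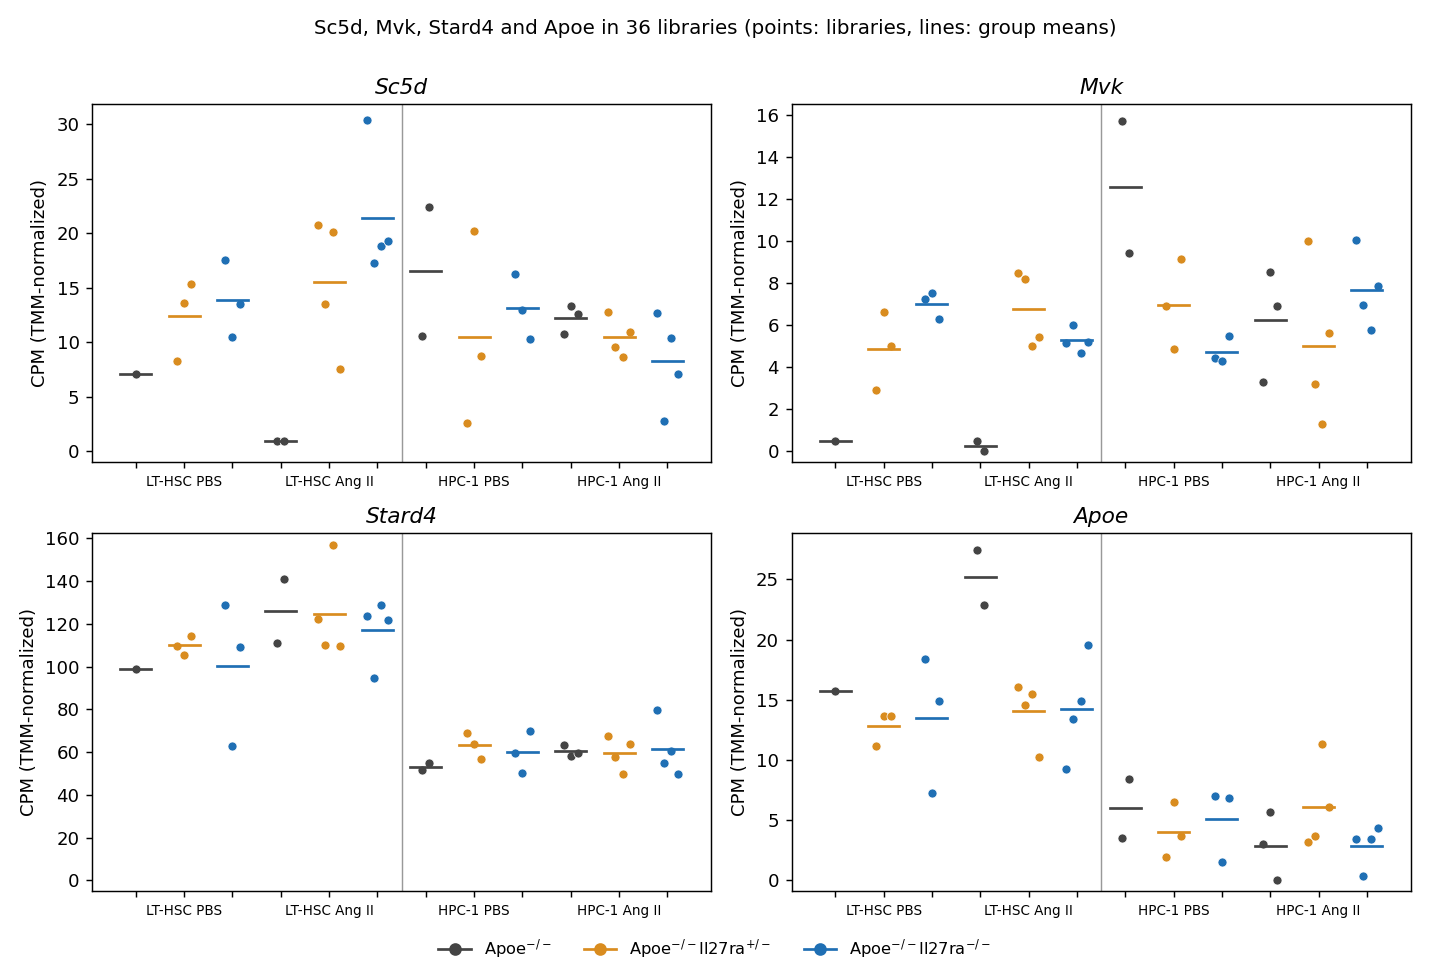
Level in CPM (vertical axes) of *Sc5d*, *Mvk*, *Stard4* and *Apoe* in each of the 36 libraries, grouped by cell type, treatment and genotype; points are libraries and lines are group means. *Sc5d* was near 1 CPM in both *Apoe*-/- Ang II libraries of LT-HSC, and *Stard4* and *Apoe* were higher in most LT-HSC than in most HPC-1 libraries.

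The intestinal transcripts moved with these differences. Of 14 tested markers of intestinal epithelium, 9 were lower in *Apoe*-/-*Il27ra*-/- than in *Apoe*-/- LT-HSC after Ang II, and 9 were lower in *Apoe*-/-*Il27ra*+/- than in *Apoe*-/-, with sums of 491.6 and 531.6 CPM in *Apoe*-/-, 93.8, 98.4, 87.1 and 97.7 in *Apoe*-/-*Il27ra*+/- and 106.9, 96.2, 94.1 and 110.7 in *Apoe*-/-*Il27ra*-/- libraries. *Muc2*, *Tff3* and *Fabp2* were at 0 in every *Apoe*-/-*Il27ra*+/- and *Apoe*-/-*Il27ra*-/- library of that treatment. *Muc2* was at 53.4 and 41.3 CPM in the *Apoe*-/- libraries. Of 5 smooth muscle and endothelial genes, 1 was lower in each comparison, with sums of 115.1 and 117.0 CPM in *Apoe*-/-, 108.4, 71.9, 92.3 and 78.0 in *Apoe*-/-*Il27ra*+/- and 68.8, 69.5, 73.8 and 74.6 in *Apoe*-/-*Il27ra*-/- libraries, led by *Pecam1*. Of the markers of LT-HSC, HPC-1, proliferation and other blood cells, edgeR called 0 in either comparison. Their part in the *Sc5d* and *Mvk* results was not tested.

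The LT-HSC library labelled *Apoe*-/- PBS, with a sum of 324.8 CPM of intestinal transcripts, held 7.13 CPM of *Sc5d*, the lowest of the LT-HSC libraries outside the *Apoe*-/- Ang II group, and 0.476 of *Mvk*. Replicate 3 of the *Apoe*-/- Ang II HPC-1, with a sum of 325.1 CPM, held 12.6 and 6.93 CPM. The 10 nearest protein-coding neighbours of *Sc5d*, among them *Sorl1* and *Tecta*, included 7 tested in LT-HSC, and edgeR called 0 of them in either comparison, with log2 fold changes from -0.02 to 3.53 and from -0.18 to 2.72 and smallest adjusted p-values of 0.0844 and 0.160. Without 3 libraries that stood apart (replicate 2 of the *Apoe*-/-*Il27ra*-/- PBS and of the *Apoe*-/-*Il27ra*-/- Ang II LT-HSC, and the library labelled *Apoe*-/- PBS), both genes still passed in both comparisons, and *Abca1* passed as well in *Apoe*-/-*Il27ra*-/- mice.

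The other 30 genes did not pass in these comparisons. At an unadjusted p under 0.05 stood 9 of 32 genes for *Apoe*-/-*Il27ra*-/- and 7 for *Apoe*-/-*Il27ra*+/- mice, against 17.7 and 15.7% of all genes. They included *Ebp*, at 20.2 and 43.3 CPM in *Apoe*-/-, 17.9, 12.4, 14.9 and 12.3 in *Apoe*-/-*Il27ra*+/- and 19.6, 22.0, 8.79 and 15.6 in *Apoe*-/-*Il27ra*-/- libraries, with log2 fold changes of -1.14 in *Apoe*-/-*Il27ra*+/- and -0.94 in *Apoe*-/-*Il27ra*-/- mice (edgeR adjusted p = 0.166 and 0.210, below the *Apoe*-/- median in 4 of 4 libraries of each group). *Ggps1*, which makes the geranylgeranyl donor for protein prenylation, had log2 fold changes of 0.80 and 0.84, and *Apoe* of -0.84 and -0.80, in *Apoe*-/-*Il27ra*+/- and *Apoe*-/-*Il27ra*-/- mice. In the further lists of lipid genes, 1 gene passed, *Smpdl3a*, an LXR target that encodes a phosphodiesterase, with a mean of 18.3 CPM in *Apoe*-/- and 45.9 in *Apoe*-/-*Il27ra*-/- libraries (log2 fold change 1.34, SE 0.32, edgeR adjusted p = 0.0420, higher in 4 of 4). That gene failed in 4 of 6 fits that left out a library and in 4 of 9 other alternatives, among them the fit with Y-linked expression as a covariate (1.198, edgeR adjusted p = 0.0678). The Y-linked *Ddx3y* was above the detection limit in 2 of 2 *Apoe*-/-, 2 of 4 *Apoe*-/-*Il27ra*+/- and 2 of 4 *Apoe*-/-*Il27ra*-/- LT-HSC libraries after Ang II, so sex and genotype are partly confounded in these comparisons and in the others against *Apoe*-/-, all of whose libraries had it. With that covariate, the mean log2 CPM of *Ddx3y*, *Eif2s3y*, *Kdm5d* and *Uty*, *Sc5d* and *Mvk* passed in both comparisons.

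In the remaining comparisons within a cell type, none of the 32 genes passed. In LT-HSC these were *Apoe*-/-*Il27ra*-/- against *Apoe*-/-*Il27ra*+/- mice after Ang II and after PBS, and Ang II against PBS within *Apoe*-/-*Il27ra*+/- and within *Apoe*-/-*Il27ra*-/- mice. For each, edgeR called 0 of 32 genes against 0% of 16365, with 0, 0, 1 and 0 at an unadjusted p under 0.05, and DESeq2 also called 0. The log2 fold changes of the 32 genes spanned -0.55 to 0.79, -0.78 to 1.22, -0.91 to 1.65 and -0.45 to 0.63. The gene at an unadjusted p under 0.05 was *Nr1h2*, with a log2 fold change of 0.44 for Ang II against PBS in *Apoe*-/-*Il27ra*+/- mice (edgeR adjusted p = 0.962).

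In HPC-1 after Ang II, *Apoe*-/-*Il27ra*-/- against *Apoe*-/-, *Apoe*-/-*Il27ra*+/- against *Apoe*-/- and *Apoe*-/-*Il27ra*-/- against *Apoe*-/-*Il27ra*+/- mice gave 0 of 31 genes against 0% of 13199 by edgeR, 0 in each at an unadjusted p under 0.05 and 0 by DESeq2. After PBS, *Apoe*-/-*Il27ra*-/- against *Apoe*-/- mice gave 0 of 31 genes against 0.0152%, and *Apoe*-/-*Il27ra*+/- against *Apoe*-/- and *Apoe*-/-*Il27ra*-/- against *Apoe*-/-*Il27ra*+/- gave 0 of 31 against 0%; 2, 1 and 0 genes were at an unadjusted p under 0.05 and DESeq2 called 0 in each. Ang II against PBS gave 0 of 31 against 0% in each of the 3 genotypes, with 0, 1 and 0 at an unadjusted p under 0.05 and 0 by DESeq2. Over these 9 comparisons the fold changes of the 31 genes spanned -1.70 to 2.01 on the log2 scale. After PBS, *Ebp* had log2 fold changes of -0.93 in *Apoe*-/-*Il27ra*-/- and -0.80 in *Apoe*-/-*Il27ra*+/- over *Apoe*-/- mice, at 44.9 and 48.0 CPM in *Apoe*-/-, 26.1, 26.0 and 27.9 in *Apoe*-/-*Il27ra*+/- and 27.4, 26.8 and 19.1 in *Apoe*-/-*Il27ra*-/- libraries. Both *Apoe*-/- libraries lay above all others, and neither difference passed (edgeR adjusted p = 0.590 in *Apoe*-/-*Il27ra*-/- and 1.00 in *Apoe*-/-*Il27ra*+/-, lower in 3 of 3 libraries each).

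Whether the effects differed between the cell types was tested directly, as interaction terms over all 36 libraries. The interaction terms were not among the planned tests. For *Apoe*-/-*Il27ra*-/- against *Apoe*-/- mice after Ang II, the effect on *Sc5d* was larger in LT-HSC than in HPC-1 by 4.96 on the log2 scale (SE 0.90, edgeR quasi-likelihood test, Benjamini-Hochberg adjusted p = 0.0114), and it was 1 of 32 genes against 0.05% of 18013. For *Apoe*-/-*Il27ra*+/- against *Apoe*-/- mice the difference was 4.14 (SE 0.91, edgeR adjusted p = 0.0460), 1 of 32 against 0.117%. All 4 libraries of each LT-HSC group lay above both *Apoe*-/- libraries, whereas the HPC-1 genotypes overlapped. The *Apoe*-/-*Il27ra*-/- term failed without replicate 2 of the *Apoe*-/- LT-HSC (4.96, edgeR adjusted p = 0.0711). The *Apoe*-/-*Il27ra*+/- term passed in 1 of 13 fits that each left out a library, with log2 differences from 3.97 to 4.39 and edgeR adjusted p-values from 0.0404 (without replicate 4 of the *Apoe*-/-*Il27ra*+/- LT-HSC) to 0.127 (without replicate 2 of the *Apoe*-/- LT-HSC).

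For *Mvk* the same terms were 3.96 (SE 1.17) and 4.91 (SE 1.16) and did not pass (edgeR adjusted p = 0.278 and 0.108), so a difference of its effect between the cell types was not shown. The interaction terms for *Apoe*-/-*Il27ra*-/- against *Apoe*-/-*Il27ra*+/- mice after Ang II and after PBS, and for Ang II against PBS within *Apoe*-/-*Il27ra*+/- and within *Apoe*-/-*Il27ra*-/- mice, called 0 of 32 genes against 0% of 18013 by edgeR. At an unadjusted p under 0.05 stood 0, 0, 1 and 0 genes, and DESeq2 called 0 in each.

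Promoters were searched because SREBP genes are often regulated together. RefSeq windows from 250 bases before to 50 after a start were found for 27 of the 32 genes; *Fdps*, *Fdft1*, *Sqle* and *Abcg1* were not matched and *Stard4* was not searched. On both strands of the first window listed for each gene, the sterol response element TCACNCCAC was found in 1 of the 27, the NF-Y box CCAAT in 20 and the Sp1 box GGGCGG in 20. Of 32851 windows of all genes, in which a gene can have several, 1.24, 37.4 and 35.7% held them. Among further windows of the 27 genes, *Dhcr7* also had the NF-Y box, and *Insig2* and *Srebf1* the Sp1 box. *Hmgcs1* was the only gene of the 27 with an exact match to the string TCACNCCAC. Sterol response elements of other sequence were not searched, so the other windows may hold such elements. The *Hmgcs1* window is shown for that match, in capitals, as chr13:119690101-119690400 on the plus strand of GRCm38.p6. *Hmgcs1* did not pass in the cell type comparison over 5 conditions, and a match of letters is a description and not a site of binding.

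Hmgcs1: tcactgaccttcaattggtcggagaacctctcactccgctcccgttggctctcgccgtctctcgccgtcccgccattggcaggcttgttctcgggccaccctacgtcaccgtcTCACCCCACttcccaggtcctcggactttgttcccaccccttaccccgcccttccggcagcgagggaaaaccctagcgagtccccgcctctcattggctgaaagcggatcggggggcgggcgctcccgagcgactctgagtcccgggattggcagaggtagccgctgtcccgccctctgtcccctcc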

How the data were processed

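Per the submitters' processing notes, the authors aligned reads with Bowtie2 and made the expected counts per gene with RSEM 1.2.31 on mm10 before they deposited them, whereas the paper's methods name STAR with RSEM. Whether counting used the strand is not given in either source. The deposited file held 0 genes with a value that differed from its rounded value at all, and whether the expected counts were rounded before deposit is not given. From them, edgeR 4.0.16 in R 4.3.3 computed TMM factors, filtered genes with filterByExpr and fitted robust quasi-likelihood models in which all groups of a fit shared 1 estimate of the spread, with Benjamini-Hochberg adjustment over all genes tested at 0.05. DESeq2 1.42.0 was an alternative. The members and lists were chosen with earlier results of these data known.

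Members that passed in a comparison were given with values of its libraries, other members as ranges, and *Sc5d* in all 36 libraries. Genes of the pathway lists were given where they passed, except for some that are not reported. The 41 pairs of replicates within groups included 0 identical ones. Whether libraries of the cell types that share a replicate number came from the same mice is not given. A correlation could be computed for 16 of 17 such pairs, from -0.197 to 0.317. The Y-linked *Ddx3y* was in both or in neither for 13 of 17. Pairing was thus not shown and not excluded. The main fit treated the libraries as independent, and the replicate block was an alternative. Within cell types, 1 of 15 comparisons, *Apoe*-/-*Il27ra*-/- against *Apoe*-/-*Il27ra*+/- HPC-1 after PBS, had every correlation over 0.1.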

Additional observations from a re-analysis of the deposited data

Results flagged for a closer look

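In groups of 4 libraries, single values far from the other 3 were looked for in 33 genes, the members and *Il27ra*. They were found in 10 of 132 sets, 7.58%. The critical value used corresponds to about 1 in 20 for independent normal values. CPM values were not checked for normality and several flagged sets share a library, so the share is a description and not a test. In the *Apoe*-/-*Il27ra*+/- HPC-1 after Ang II, replicate 3 had 23.02 CPM of *Tm7sf2* (others 1.83 to 5.33), 24.33 of *Hsd17b7* (2.27 to 5.48) and 3.475 of *Nsdhl* (14.1 to 14.4), and replicate 1 had 108.7 CPM of *Srebf2* (200.6 to 213.5) and 36.38 of *Scap* (75.6 to 82.6). In the *Apoe*-/-*Il27ra*-/- LT-HSC after Ang II, replicate 1 had 7.767 CPM of *Hsd17b7* (4.41 to 4.91), 30.33 of *Sc5d* (17.3 to 19.3) and 42.53 of *Dhcr7* (20.7 to 22.5). In the *Apoe*-/-*Il27ra*-/- HPC-1 after Ang II, replicate 2 had 0.696 CPM of *Fdft1* (19.3 to 23.1) and replicate 3 had 42.01 of *Mylip* (58.2 to 61.2). The cause was not tested.

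The effect of genotype on *Sc5d* after Ang II differed between the cell types by 4.96 on the log2 scale for *Apoe*-/-*Il27ra*-/- and 4.14 for *Apoe*-/-*Il27ra*+/- over *Apoe*-/- mice. The *Apoe*-/-*Il27ra*+/- difference passed in 1 of 13 fits that left out a library, and not with the replicate block, without 3 doubted libraries or in libraries under 4 M counts. The *Apoe*-/-*Il27ra*-/- difference passed in 12 of 13 and not in libraries under 4 M counts.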

How the results depend on the processing

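For LT-HSC of *Apoe*-/-*Il27ra*-/- against *Apoe*-/- mice after Ang II, 2 members and 277 genes passed. DESeq2 gave 1 member (780 genes), libraries under 4 M counts 1 (29), only the 2 groups compared 1 (32), the replicate block 1 (97), no filter on low counts 2 (833) and the fit without 3 doubted libraries 3 (777). Leave-one-out fits gave from 1 (without replicate 3 of the *Apoe*-/-*Il27ra*-/- group) to 4 members (without replicate 1 of the *Apoe*-/- group, 627 genes). For *Apoe*-/-*Il27ra*+/- against *Apoe*-/- mice, with 2 members and 136 genes, DESeq2 gave 1 (437), libraries under 4 M counts 0 (16), only the 2 groups 0 (37), the replicate block 1 (39), no filter 2 (496) and the fit without doubted libraries 2 (377). Leave-one-out fits gave from 2 to 5 members, the latter without replicate 1 of the *Apoe*-/- group (565 genes). Leaving out a *Apoe*-/- library leaves 1, whose spread is assumed to be like that of the other groups. For HPC-1 of *Apoe*-/-*Il27ra*-/- against *Apoe*-/- mice after PBS, only the 2 groups compared gave 1 member, *Abca1* (28 genes, against 2).

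For the difference between cell types of *Apoe*-/-*Il27ra*-/- against *Apoe*-/- mice, with 1 member and 9 genes, libraries under 4 M counts gave 0 (5 genes), DESeq2 1 (58), no filter 1 (192) and leave-one-out 0 to 1. For *Apoe*-/-*Il27ra*+/- against *Apoe*-/- mice, with 1 member and 21 genes, libraries under 4 M counts gave 0 (1 gene), a mean of at least 10 counts 2 (25), the replicate block 0 (1), the fit without doubted libraries 0 (18), DESeq2 1 (52), no filter 1 (129) and leave-one-out 0 to 1. For LT-HSC against HPC-1, with 11 members, alternatives gave 9 to 14 and leave-one-out 10 to 13 members, and 5899 to 6926 genes. Among the alternatives, all 11 members still passed without the doubted libraries. These include replicate 2 of the *Apoe*-/-*Il27ra*-/- PBS LT-HSC, which resembled HPC-1 by its markers. With the replicate block *Abca1* (log2 difference 0.58, edgeR adjusted p = 0.0501) and *Mvk* (-0.83, edgeR adjusted p = 0.0689) no longer passed there, nor did *Cyp27a1*, *Erlin2*, *Gramd1a*, *Npc1* and *Pnpla3* of the further lists (edgeR adjusted p from 0.0606 to 0.0855). The log2 differences of these genes of the further lists were -1.59, 0.22, -0.33, -0.315 and 2.32 with the block, in that order. *Pnpla3* also did not pass there with Y-linked expression as a covariate (1.71, edgeR adjusted p = 0.0537). Without a filter on low counts, *Abcg1*, *Mvk* and *Erlin2* did not pass there. The comparisons with 0 members called kept 0 in all other alternatives. Without a filter on low counts, genes called rose from 0 to 249 and 193 for *Apoe*-/-*Il27ra*-/- against *Apoe*-/-*Il27ra*+/- LT-HSC after Ang II and after PBS, to 57 and 104 for Ang II against PBS in *Apoe*-/-*Il27ra*+/- and *Apoe*-/-*Il27ra*-/- LT-HSC, to 30 and 33 for *Apoe*-/-*Il27ra*-/- and *Apoe*-/-*Il27ra*+/- against *Apoe*-/- HPC-1 after Ang II, and to 111, 99, 44 and 100 for the other interaction terms. After PBS, HPC-1 of *Apoe*-/-*Il27ra*-/- and *Apoe*-/-*Il27ra*+/- against *Apoe*-/- mice reached 52 (from 2) and 21 genes, and no other comparison more than 12. Fits of libraries under 4 M counts were not run for the cell type comparison, for *Apoe*-/-*Il27ra*-/- against *Apoe*-/-*Il27ra*+/- LT-HSC after PBS, for Ang II against PBS in *Apoe*-/-*Il27ra*-/- LT-HSC and for the interaction terms of the latter 2. Leaving out the *Apoe*-/- Ang II condition was chosen after seeing the data. The cause of these changes was not tested.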
